A study of Mus musculus with 9 samples.

Results

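The cells were cultured mouse oligodendrocyte progenitors that lack p53. In the line that expresses PDGF-BB 13 genes had almost no RNA, and in cells without PDGF-BB they had clear RNA. They were chosen by 2 limits on CPM, a gene's count divided by the column total and multiplied by 1000000. The mean was under 0.5 CPM in the vehicle-treated PDGF-BB libraries and at least 10 CPM in the libraries without PDGF-BB. Of 56980 gene rows, 9497 on chromosomes 1 to 19 had 10 CPM or more without PDGF-BB. Of these, 18 were under 0.5 CPM in the PDGF-BB line. Leaving out Pla2g7, Cbs, Ptgs2, Enpp6 and Grm3 by name gave the 13 genes, 0.137% of the 9497. They are Adgrv1, Dusp26, Tgfb1i1, Mfap2, Ppp1r1a, Thy1, Gsg1l, Pxmp4, St8sia3, Lrfn2, Pcdha1, Stxbp5l and Shroom1, and all 13 are protein coding. The fall in the PDGF-BB line is how they were found, so it is described below without a test. The libraries with the EZH2 inhibitor played no part in the choice.

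The study measured polyadenylated RNA in 9 libraries, 3 from each of 3 groups. BB-p53n EZH2i cells were Trp53 -/- progenitors expressing PDGF-BB that received 5 µM tazemetostat for 48 hours, BB-p53n DMSO cells were the same PDGF-BB line with the vehicle, and p53n cells were Trp53 -/- progenitors without PDGF-BB. Every group lacked p53 and was grown in SATO medium with 10 ng/mL PDGF-AA. Only PDGF-BB cells were given DMSO, and the labels do not say how PDGF-BB was introduced, whether each genotype was 1 line or several, or whether replicates were separate cultures. PDGF-BB, vehicle and differences between lines therefore cannot be told apart in the comparison with p53n, and the p-values rest on the spread of replicates that may be technical.

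Oligodendrocyte progenitors are the dividing precursors of the myelin-forming cells of the brain and spinal cord, and PDGF drives their division through the receptor encoded by Pdgfra. EZH2 is the catalytic subunit of Polycomb repressive complex 2, which places methyl groups on lysine 27 of histone H3 at silent genes. Tazemetostat blocks that activity, and a gene held down by the mark may regain RNA as the mark is diluted over cell divisions. The question for these 13 genes was which families they come from, whether their relatives fell with them, and whether the inhibitor brought any of them back.

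Total counts were 19471768 to 25008897 in BB-p53n EZH2i, 32727333 to 34557109 in BB-p53n DMSO and 22628267 to 27979456 in p53n libraries, so 3 counts in a library were worth 0.0868 to 0.154 CPM. Every OPC marker examined was at 1 CPM or more in every group. Sox10, a defining factor of the lineage, averaged 449, 294 and 2.29 CPM in BB-p53n EZH2i, BB-p53n DMSO and p53n cells. In the same order Gpr17 averaged 56.5, 130 and 1974 CPM and Olig1 1506, 1001 and 1036 CPM. Pdgfra and Lhfpl3 were also lower in both PDGF-BB groups than in p53n, whereas Cspg4 and Olig2 were higher. The OPC markers summed to 3903 to 4353 CPM in BB-p53n EZH2i, 3778 to 3920 CPM in BB-p53n DMSO and 5583 to 5980 CPM in p53n libraries. The oligodendrocyte markers summed to 296 to 308 CPM in BB-p53n EZH2i, 206 to 222 CPM in BB-p53n DMSO and 1210 to 1322 CPM in p53n libraries. Of 7 astrocyte markers, 3 reached 1 CPM in BB-p53n EZH2i, 3 in BB-p53n DMSO and 7 in p53n, with summed levels of 1097 to 1193, 1031 to 1067 and 1579 to 1753 CPM, and Aqp4 had no count in any BB-p53n EZH2i library. Xist, the RNA that coats the inactive X chromosome, had 2.72 to 16.8 CPM in BB-p53n EZH2i, 45.1 to 64.4 CPM in BB-p53n DMSO and 2860 to 3260 CPM in p53n, while the Y-linked Ddx3y had 5.65 to 13.3, 42 to 52.6 and 0.215 to 0.751 CPM. The lines thus differed in markers of sex and of glial cell type as well as in PDGF-BB. Xist and Ddx3y, and the Y-linked Eif2s3y, Kdm5d and Uty, were also lower in inhibitor than in vehicle libraries of the PDGF-BB line. The part of any of these differences in the fall of the 13 genes or in the inhibitor comparison was not tested. In bulk RNA fewer cells of a type and less RNA per cell cannot be told apart.

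Promoter sequences were found in the RefSeq table (GRCm38.p6) for 4 of the 13 genes, Adgrv1, Mfap2, Pxmp4 and Stxbp5l. They are shown because CpG-rich promoters are the usual seat of Polycomb binding. Each runs from 250 bases before to 50 bases after the annotated start, on the gene's own strand, with every CG in capitals. The Adgrv1 window is chr13:81633095-81633394 on the minus strand, the Pxmp4 window chr2:154603624-154603923 on the minus strand, the Stxbp5l window chr16:37384909-37385208 on the minus strand, and the more CG-rich of the Mfap2 windows chr4:141010431-141010730 on the plus strand.
Adgrv1: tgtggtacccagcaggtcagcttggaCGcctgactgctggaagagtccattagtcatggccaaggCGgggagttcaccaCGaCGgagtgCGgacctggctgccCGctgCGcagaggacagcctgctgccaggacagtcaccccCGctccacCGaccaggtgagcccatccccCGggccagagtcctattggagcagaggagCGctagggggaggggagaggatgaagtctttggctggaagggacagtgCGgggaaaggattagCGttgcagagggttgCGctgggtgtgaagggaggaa
Pxmp4: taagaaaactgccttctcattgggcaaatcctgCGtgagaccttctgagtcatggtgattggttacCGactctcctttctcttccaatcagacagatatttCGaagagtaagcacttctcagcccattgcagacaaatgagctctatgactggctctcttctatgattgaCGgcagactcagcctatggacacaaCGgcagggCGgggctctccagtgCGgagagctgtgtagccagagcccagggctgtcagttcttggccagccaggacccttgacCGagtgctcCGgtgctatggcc
Stxbp5l: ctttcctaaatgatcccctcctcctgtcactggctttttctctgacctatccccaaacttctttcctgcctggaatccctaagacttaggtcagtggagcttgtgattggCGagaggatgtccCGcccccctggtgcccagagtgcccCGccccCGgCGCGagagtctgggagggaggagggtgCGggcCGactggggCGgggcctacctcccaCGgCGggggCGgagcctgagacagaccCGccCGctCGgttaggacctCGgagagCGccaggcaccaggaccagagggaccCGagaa
Mfap2: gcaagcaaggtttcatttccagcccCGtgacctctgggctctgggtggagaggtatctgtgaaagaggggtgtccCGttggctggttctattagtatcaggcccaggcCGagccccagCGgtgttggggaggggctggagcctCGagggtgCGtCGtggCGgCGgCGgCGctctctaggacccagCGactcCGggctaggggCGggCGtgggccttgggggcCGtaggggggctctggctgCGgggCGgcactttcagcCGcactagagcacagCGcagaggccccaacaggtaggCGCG

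The 5 promoter windows of these 4 genes held 6 to 22 CG each, with a median of 14, against a median of 22 in 9369 windows of genes at 10 CPM or more in p53n. By a GC content above 50% and an observed-to-expected CG ratio above 0.6, 1 of the 5 windows was CpG-rich, the one of Mfap2 printed above. The same limits were met by 72.2% of the 9369 windows and by 33.3% of all 32851 windows in the table. Of the motifs searched on both strands, TGANTCA, the AP-1 site, was found in the Pxmp4 window alone, and 4.34% of the 9369 windows hold it. No window of the 4 genes held the TATA box letters TATAAA, present in 6.32% of the 9369 windows. Nor did any hold the SOX-type motif ACAAAG, present in 13.4%, or the E-box CAGCTG, present in 14.9%. With 5 windows these are descriptions of the letters present. No window was available for Ppp1r1a, Shroom1, St8sia3, Thy1 or Tgfb1i1, the genes called higher with the inhibitor as counted below.

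In p53n cells the 13 genes were moderately expressed. Their p53n means ran from 10.4 to 27.3 CPM with a median of 15.6, below the median of 46.2 CPM of the 9497 expressed rows. Per kilobase of exon the p53n level ran from 1.10 CPM for Adgrv1 to 16.2 CPM for Mfap2. In BB-p53n DMSO cells the means were 0.0890 to 0.486 CPM, a median of 1.63% of the p53n level, with a range of 0.832% to 4.32%. Over the 9497 expressed rows the median was 99.6%. The 13 genes together had 3.25 to 5.13 CPM in BB-p53n DMSO libraries and 208 to 218 CPM in p53n libraries. They lay on 11 chromosomes, and none was within 100 kb of another. Their longest transcripts had a median GC content of 55.3%, with a range of 43.8% to 59.6%, against 49.2% for 9462 expressed rows.

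**Figure D1:**
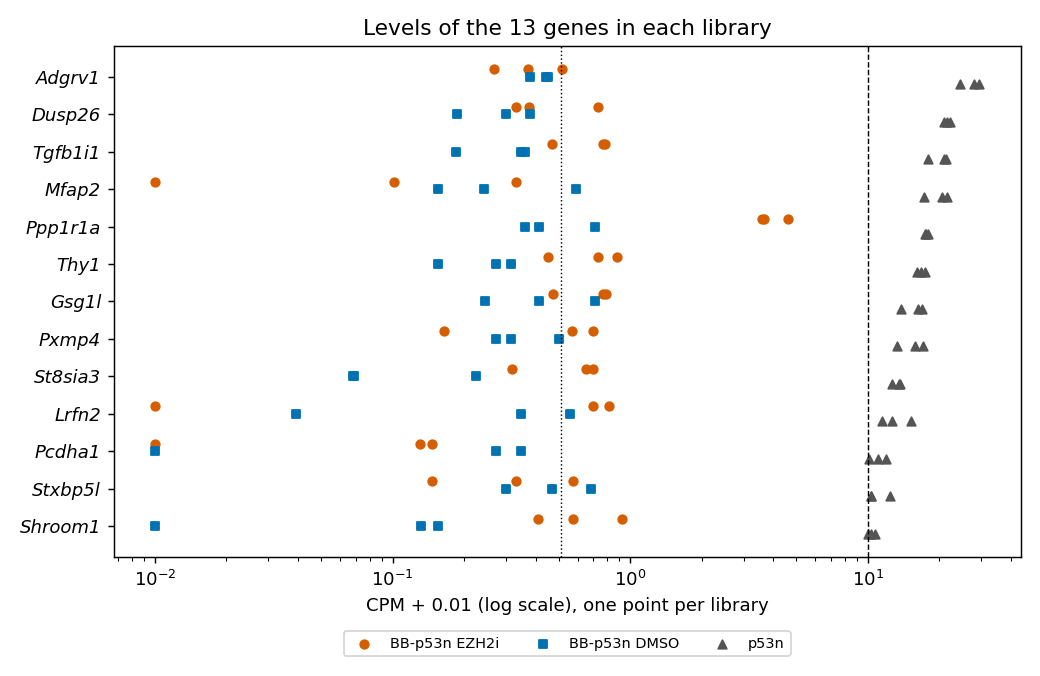
Level of each gene in every library as CPM + 0.01 on a log scale, with BB-p53n EZH2i (circles), BB-p53n DMSO (squares) and p53n (triangles) and 1 point per library. The dotted line marks 0.5 CPM and the dashed line 10 CPM, the limits that chose the genes, and Ppp1r1a alone has BB-p53n EZH2i libraries between 3.59 and 4.58 CPM.

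Proteins of the cell surface and synapse are encoded by 5 of the 13 genes. The grouping here and below was made after the genes were known. The share of cell surface and synapse genes among the expressed rows was not counted. Adgrv1 (chr13:81243187-81781273 on the minus strand, GRCm39), a giant adhesion G protein-coupled receptor that forms links between the stereocilia of hair cells, had 0.360, 0.257 and 0.504 CPM in BB-p53n EZH2i libraries, 0.439, 0.434 and 0.367 CPM in BB-p53n DMSO libraries and 24.5, 29.4 and 27.9 CPM in p53n libraries. It had the highest p53n mean of the 13, and its inhibitor and vehicle libraries overlapped. Thy1 (chr9:43954681-43959876 on the plus strand), a small GPI-anchored immunoglobulin-domain glycoprotein of neurons and T cells, had 0.440, 0.719 and 0.870 CPM in BB-p53n EZH2i, 0.263, 0.145 and 0.306 CPM in BB-p53n DMSO and 16.0, 17.4 and 16.7 CPM in p53n. All 3 inhibitor libraries lay above all 3 vehicle libraries. Such separation, here and for the genes below, was not counted over all genes and only describes the libraries. In the test given below, 37.3% of all tested genes were called higher with the inhibitor and 35.6% lower. Gsg1l (chr7:125477592-125681583 on the minus strand), an auxiliary subunit of AMPA-type glutamate receptors, had 0.760, 0.462 and 0.779 CPM in BB-p53n EZH2i, 0.234, 0.405 and 0.703 CPM in BB-p53n DMSO and 13.8, 16.2 and 16.9 CPM in p53n, and the first 2 groups overlapped.

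Lrfn2 (chr17:49239407-49404616 on the plus strand) encodes a leucine-rich repeat adhesion protein of excitatory synapses that binds the scaffold PSD-95. It had 0.800, 0 and 0.687 CPM in BB-p53n EZH2i, 0.0293, 0.550 and 0.336 CPM in BB-p53n DMSO and 11.4, 15.1 and 12.6 CPM in p53n. It was uneven among PDGF-BB libraries, with 0 to 20 counts in inhibitor libraries and 1 to 19 in vehicle libraries. Pcdha1 (chr18:37063237-37320714 on the plus strand), one of the clustered protocadherins that give neurons combinations of surface adhesion proteins, had 0.120, 0 and 0.137 CPM in BB-p53n EZH2i, 0.263, 0 and 0.336 CPM in BB-p53n DMSO and 11.9, 10.1 and 11 CPM in p53n. Its 5353 exon bases include 2864 that other genes of the alpha cluster also use, and the file header records no option that would assign fragments over them, so its level is uncertain.

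Genes of secretion and of sugar chains were Stxbp5l and St8sia3. Stxbp5l (chr16:36935304-37205324 on the minus strand), also called tomosyn-2, binds syntaxin and restrains vesicle fusion. It had 0.320, 0.565 and 0.137 CPM in BB-p53n EZH2i, 0.673, 0.289 and 0.458 CPM in BB-p53n DMSO and 10.3, 12.4 and 10.3 CPM in p53n. It kept the largest residue of the 13 genes, 4.32% of the p53n level in the vehicle libraries. St8sia3 (chr18:64387430-64412682 on the plus strand), a Golgi enzyme that adds sialic acid in an alpha-2,8 linkage to glycolipids and glycoproteins, had 0.640, 0.308 and 0.687 CPM in BB-p53n EZH2i, 0.0585, 0.0579 and 0.214 CPM in BB-p53n DMSO and 13.5, 12.6 and 13.6 CPM in p53n. Its vehicle level, 0.832% of p53n, was the lowest share of the 13, and all inhibitor libraries lay above all vehicle libraries. It shares 919 exon bases with St8sia3os on the opposite strand, and the counting used no strand option, so their reads cannot be told apart there.

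Matrix and cytoskeleton genes were Mfap2, Tgfb1i1 and Shroom1. Mfap2 (chr4:140737729-140743295 on the plus strand), a protein of the fibrillin microfibrils that scaffold elastic fibres, had 0.320, 0 and 0.0916 CPM in BB-p53n EZH2i, 0.146, 0.232 and 0.581 CPM in BB-p53n DMSO and 21.4, 20.4 and 17.2 CPM in p53n. Tgfb1i1 (chr7:127845984-127854871 on the plus strand), the paxillin-like adaptor Hic-5 of focal adhesions, had 0.760, 0.770 and 0.458 CPM in BB-p53n EZH2i, 0.351, 0.174 and 0.336 CPM in BB-p53n DMSO and 20.9, 21.2 and 17.9 CPM in p53n. Shroom1 (chr11:53348032-53358593 on the plus strand), an actin-binding protein of the Shroom family, had 0.400, 0.565 and 0.916 CPM in BB-p53n EZH2i, 0, 0.145 and 0.122 CPM in BB-p53n DMSO and 10.3, 10.7 and 10.0 CPM in p53n. Inhibitor libraries lay above vehicle libraries without overlap for Tgfb1i1 and Shroom1, and overlapped them for Mfap2, which had a single inhibitor library above its lowest vehicle library.

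The rest encode phosphatase regulation and a peroxisomal protein. Ppp1r1a (chr15:103438706-103446430 on the minus strand) encodes inhibitor-1, which blocks protein phosphatase 1 once protein kinase A has phosphorylated it. It had 3.64, 3.59 and 4.58 CPM in BB-p53n EZH2i, 0.351, 0.405 and 0.703 CPM in BB-p53n DMSO and 17.3, 17.6 and 17.9 CPM in p53n. The 3 groups stood apart, with the inhibitor libraries between the others. Dusp26 (chr8:31579499-31587075 on the plus strand), an atypical dual-specificity phosphatase that acts on MAP kinases, had 0.320, 0.719 and 0.366 CPM in BB-p53n EZH2i, 0.176, 0.289 and 0.367 CPM in BB-p53n DMSO and 20.9, 21.6 and 22.1 CPM in p53n. Pxmp4 (chr2:154427678-154445628 on the minus strand), an integral membrane protein of peroxisomes, had 0.560, 0.154 and 0.687 CPM in BB-p53n EZH2i, 0.263, 0.492 and 0.306 CPM in BB-p53n DMSO and 15.8, 13.3 and 17.1 CPM in p53n. For Dusp26 and Pxmp4 the inhibitor and vehicle libraries overlapped.

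The limits cut through a continuous range of levels. Just inside the lower limit were Shroom1 at 10.4 CPM and Stxbp5l at 11 CPM in p53n, and just outside it were Ptgr2 and Itih3, with 0.447 and 0.207 CPM in BB-p53n DMSO and 9.87 and 9.53 CPM in p53n. Just inside the upper limit were Ppp1r1a at 0.486 CPM and Stxbp5l at 0.474 CPM in BB-p53n DMSO, and just outside it were S100a13 at 0.542 CPM and Gm973 at 0.561 CPM. Of the 9497 expressed rows, 38 were under 1 CPM in BB-p53n DMSO, 74 under 2 CPM and 209 under 5 CPM.

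The EZH2 inhibitor raised 5 of the 13 genes, Ppp1r1a, Shroom1, St8sia3, Thy1 and Tgfb1i1, and brought none back to 10 CPM. Of all tested genes 37.3% were called higher and 35.6% lower, so 5 of 13 is close to the share over all tested genes. In BB-p53n EZH2i cells 6 genes had a mean of at least 0.5 CPM and 1, Ppp1r1a, at least 1 CPM. Counts were compared with edgeR's quasi-likelihood test on all 9 libraries, adjusted by Benjamini-Hochberg over 17001 tested genes, with a threshold of 0.05. All 13 genes passed the filter on low counts when the p53n libraries, in which they were high, were included. No gene of the 13 was called lower. With the filter applied to the 6 PDGF-BB libraries alone, St8sia3, Mfap2 and Pcdha1 had too few counts to be tested, and the other 4 genes called higher kept their calls. Among 1987 other tested genes that also averaged under 0.5 CPM in BB-p53n DMSO, 377 were called higher and 300 lower, a smaller share in each direction than among all tested genes. The share called higher among these low genes was also smaller than 5 of 13, a difference that was not tested. The vehicle libraries of the inhibitor comparison are those in which the rule required low values. The median log2 fold change was 0.71 for the 13 genes, 0.02 for all tested genes and 0.07 for the 1987 low genes. With the trend on GC content and length described below removed, these medians were 0.40, -0.01 and -0.02. In each fit 9 of the 13 values were above 0, a share that was not counted over all genes.

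Ppp1r1a reached the highest level with the inhibitor. Its 3 libraries summed to 261 counts in BB-p53n EZH2i and 49 in BB-p53n DMSO, a log2 fold change of 3.02 ± 0.23 (SE, edgeR adjusted p = 3.54e-10). The inhibitor level of 3.94 ± 0.557 CPM (SD, n = 3) was 22.4% of the p53n level of 17.6 ± 0.34 CPM (n = 3). Shroom1 rose by 2.75 ± 0.54 on the log2 scale (edgeR adjusted p = 0.000128), with 41 counts in BB-p53n EZH2i and 9 in BB-p53n DMSO. St8sia3, which was tested only because its p53n counts carried it past the filter, rose by 2.31 ± 0.48 (edgeR adjusted p = 0.000215), with 37 and 11 counts. Thy1 rose by 1.48 ± 0.37 (edgeR adjusted p = 0.00135), with 44 and 24 counts, and Tgfb1i1 by 1.20 ± 0.35 (edgeR adjusted p = 0.00468), with 44 and 29 counts. These 4 genes stayed at means of 0.545 to 0.676 CPM in inhibitor libraries, between 3.31% and 6.06% of their p53n levels.

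For the other 8 genes no change passed the threshold. Their log2 fold changes were -0.13 ± 0.35 for Adgrv1, 0.71 ± 0.39 for Dusp26, -1.05 ± 0.70 for Mfap2, 0.61 ± 0.36 for Gsg1l, 0.44 ± 0.42 for Pxmp4, 0.77 ± 0.87 for Lrfn2, -1.09 ± 0.87 for Pcdha1 and -0.50 ± 0.44 for Stxbp5l (SE). Their summed counts in the inhibitor libraries ran from 6 for Pcdha1 to 45 for Gsg1l, and depth limits how small a change could be seen. As a share of the p53n level, the 13 genes stood at a median of 3.31% in BB-p53n EZH2i cells, with a range of 0.698% for Mfap2 to 22.4% for Ppp1r1a, against the median of 1.63% in BB-p53n DMSO cells. The sum over the 13 genes was 8.11 to 10.9 CPM in inhibitor libraries and 3.25 to 5.13 CPM in vehicle libraries. Much of that difference came from Ppp1r1a, at means of 3.94 and 0.486 CPM, and the rule required the vehicle values to be low.

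**Figure D2:**
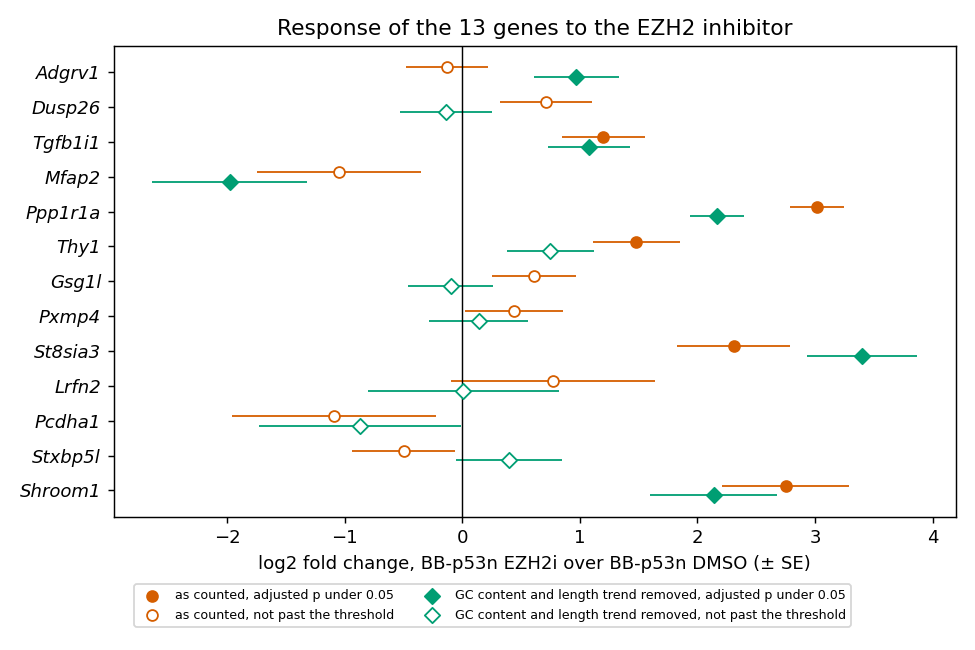
The log2 fold change of each gene, BB-p53n EZH2i over BB-p53n DMSO, with its standard error, as counted (circles) and with the trend on GC content and length removed (diamonds); filled symbols have an edgeR adjusted p under 0.05. Ppp1r1a, Shroom1, St8sia3 and Tgfb1i1 are filled and above 0 in both fits, whereas Thy1 is filled as counted only, and Adgrv1 and Mfap2 are filled only with the trend removed. St8sia3, Mfap2 and Pcdha1 passed the filter on low counts only through the p53n libraries, in which the rule required high values.

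The inhibitor comparison followed base composition across the transcriptome. Over 12786 genes the log2 fold change correlated with transcript GC content at a Spearman rho of 0.73 and with exon length at -0.43, as a description across genes of the same libraries. With each library's trend on both removed, 28.6% of all tested genes were called higher and 29.0% lower, and 13.8% of the low genes were called higher. Ppp1r1a (2.17), Shroom1 (2.14), St8sia3 (3.40) and Tgfb1i1 (1.08) remained called higher on the log2 scale. Thy1 lost its call at 0.75 ± 0.37 (edgeR adjusted p = 0.0906). Adgrv1, the longest of the 13 by exon length and low in GC content at 46.8%, was called higher at 0.97 (edgeR adjusted p = 0.0245), and Mfap2, the highest in GC, lower at -1.98 (edgeR adjusted p = 0.0159). Hence Ppp1r1a, Shroom1 and Tgfb1i1, and St8sia3 with the limit given above, were called higher with and without this trend. The calls of Thy1, Adgrv1 and Mfap2 depended on it, and Mfap2 too passed the filter through its p53n counts alone.

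The genes most closely related to the 13 did not fall with them as a class. For each gene a list of family members or partners was drawn up after the 13 were known, 16 lists in all. Of 113 relatives tested between BB-p53n DMSO and p53n cells, 40 were lower, 40 higher and 33 not called, which is 35.4% in each direction against 34.0% lower and 35.3% higher among all 17001 tested genes. No relative met both limits of the rule.

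**Figure D3:**
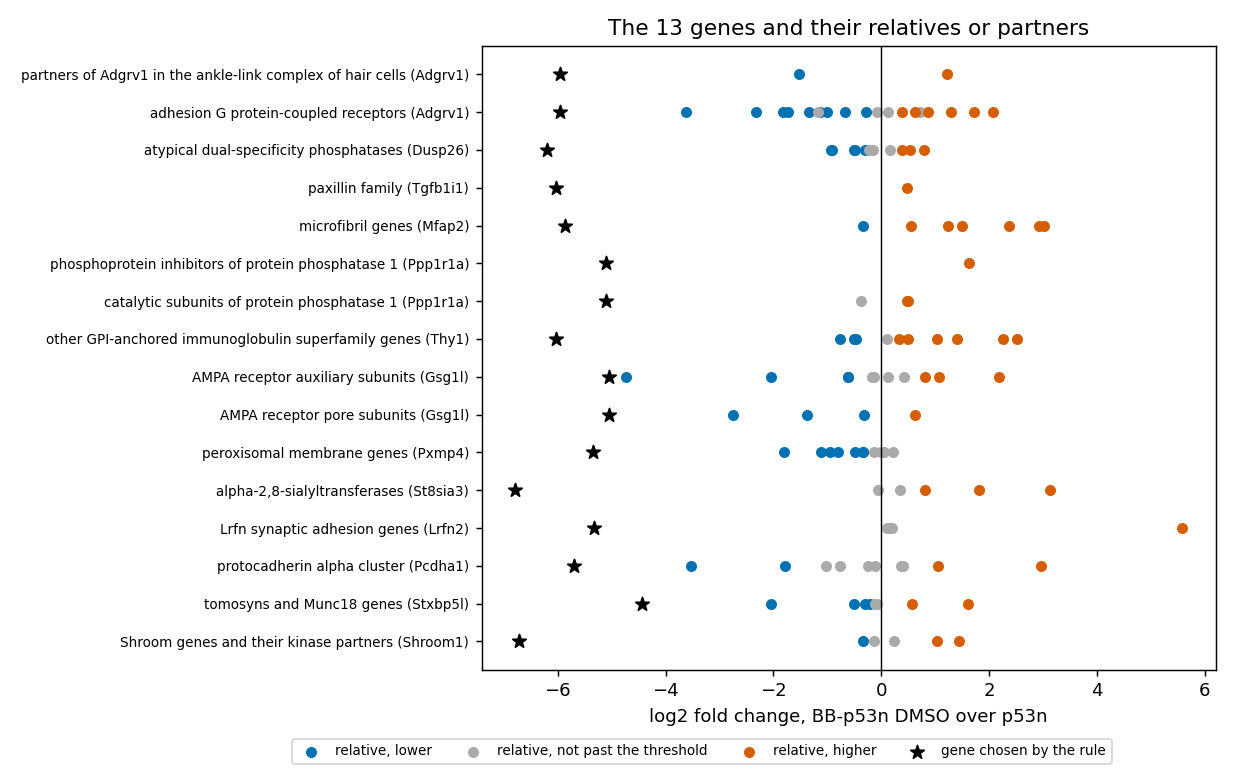
The log2 fold change, BB-p53n DMSO over p53n, of the tested relatives or partners of each gene (points coloured by direction at an edgeR adjusted p under 0.05) and of the gene itself (star, a description because the rule used this contrast). The stars lie between -4.44 and -6.79, and of the relatives Shisa9, at -4.74, comes nearest; the point at 5.58 is Lrfn5, whose value rests on 1 count in p53n cells.

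The deepest fall among the tested relatives was that of Shisa9. Shisa9, like Gsg1l an auxiliary subunit that binds AMPA receptors, averaged 1.51 ± 0.148 CPM in BB-p53n DMSO and 42.9 ± 5.68 CPM in p53n (SD, n = 3 each), a log2 fold change of -4.74 ± 0.16 (edgeR adjusted p = 8.36e-16). It was not called with the inhibitor, at 1.30 ± 0.461 CPM (n = 3) and -0.22 ± 0.24 on the log2 scale (edgeR adjusted p = 0.416). Among the 11 tested auxiliary subunits other than Gsg1l, 4 fell in the PDGF-BB line relative to p53n and 3 rose, Shisa6 the most, at 98.4 ± 4.84 CPM against 23.0 ± 0.784 CPM. Among all tested genes 34.0% were lower and 35.3% higher. Of the subunits that form the channel, Gria1 (-2.75), Gria2 (-1.38) and Gria4 (-0.32) fell on the log2 scale and Gria3 (0.62) rose. With the inhibitor all 4 were called lower, against 35.6% of all tested genes. Their edgeR log2 fold changes were -1.23 ± 0.32 for Gria1, -1.72 ± 0.15 for Gria2, -2.09 ± 0.09 for Gria3 and -1.49 ± 0.09 for Gria4. After correction for GC content and length Gria1 (-1.08), Gria3 (-0.59) and Gria4 (-0.80) were still called lower, whereas Gria2 was called higher (0.51). Cacng3, a further auxiliary subunit, was at 1.51 CPM in BB-p53n EZH2i, 0.158 CPM in BB-p53n DMSO and 0.126 CPM in p53n, a rise of 3.22 ± 0.48 with the inhibitor (edgeR adjusted p = 4.58e-06).

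Among adhesion G protein-coupled receptors other than Adgrv1, 19 of 29 were tested. In BB-p53n DMSO relative to p53n 9 of these receptors were lower and 6 higher, against 34.0% and 35.3% of all tested genes. The largest fall was that of Celsr1, a cadherin-type receptor of planar cell polarity, at 3.94 ± 0.569 CPM in BB-p53n DMSO and 51.8 ± 6.26 CPM in p53n (SD, n = 3 each; -3.63 ± 0.13, edgeR adjusted p = 2.92e-15). Celsr3 averaged 4.68 and 24.7 CPM (-2.32 ± 0.12). The inhibitor raised Celsr1 to 7.72 CPM and Celsr3 to 10.8 CPM, by 0.97 and 1.21 on the log2 scale, and both calls remained with the GC and length trend removed. Adgra3 went the other way, at 293 CPM in BB-p53n DMSO and 73.5 CPM in p53n (2.07 ± 0.07). Of the hair-cell partners of Adgrv1, Whrn was higher in BB-p53n DMSO (31.4 CPM) than in p53n (14.3 CPM) and Pdzd7 lower (0.827 and 2.55 CPM).

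In the protocadherin alpha cluster the genes parted. Of 10 tested relatives of Pcdha1, Pcdha12 (0.497 CPM in BB-p53n DMSO, 6.06 CPM in p53n, -3.53 ± 0.32) and Pcdha8 (3.65 and 13.2 CPM, -1.78 ± 0.17) were lower, Pcdha11 (4.35 and 0.587 CPM, 2.97 ± 0.26) and Pcdhac2 (18.5 and 9.39 CPM, 1.06 ± 0.13) were higher, and 6 were not called. The inhibitor raised none of the 10 and lowered 5, against 37.3% called higher and 35.6% lower among all tested genes. With the GC and length trend removed, only Pcdha8 (-0.62) and Pcdhac2 (-0.53) were still called lower. Each of these genes also uses the shared exons, and their values carry the same uncertainty as that of Pcdha1.

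Microfibril genes moved against Mfap2. Of 7 tested, 6 rose in the PDGF-BB line relative to p53n, against 35.3% of all tested genes, and 1, Ltbp3 (-0.34), fell. Fbn2, a fibrillin, averaged 430 ± 17.8 CPM in BB-p53n DMSO and 59.6 ± 2.73 CPM in p53n (SD, n = 3 each; 2.93 ± 0.08, edgeR adjusted p = 1.79e-17). Fbn1 (1.23), Eln, the gene of elastin (1.5), Ltbp1, a latent TGF-beta binding protein (2.36), and Mfap4 (3.01) were also higher on the log2 scale.

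Relatives of Tgfb1i1, Ppp1r1a, St8sia3, Lrfn2 and Shroom1 were mostly higher or not called in BB-p53n DMSO cells, as were most tested genes. Among all 17001 tested genes 34.0% were lower and 35.3% higher. Pxn, the paxillin gene closest to Tgfb1i1 in kind, averaged 66.4 CPM in BB-p53n DMSO and 50.6 CPM in p53n (0.47 ± 0.09). Ppp1r1b, which encodes the phosphatase inhibitor DARPP-32 and is the nearest relative of Ppp1r1a, averaged 11.1 and 3.79 CPM (1.63 ± 0.13) and rose further to 27.6 CPM in BB-p53n EZH2i (1.32 ± 0.11, edgeR adjusted p = 9.46e-10), a log2 fold change of 0.49 once the trend on GC content and length was taken out. Of the 5 alpha-2,8-sialyltransferases other than St8sia3, none was lower and 3 were higher, among them St8sia1, the synthase of ganglioside GD3, at 303 CPM in BB-p53n DMSO and 90.6 CPM in p53n (1.82 ± 0.06). Lrfn1, Lrfn3 and Lrfn4 differed by no more than 0.20 on the log2 scale between BB-p53n DMSO and p53n and were not called, and Lrfn5 had 84 counts in BB-p53n DMSO and 1 in p53n. Shroom3 (1.04) and Shroom4 (1.44) were higher and Shroom2 (-0.34) lower.

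Peroxisomal membrane genes leaned the same way as Pxmp4. Of 12 tested, 7 fell in the PDGF-BB line relative to p53n, against 34.0% of all tested genes, none rose and 5 were not called, with falls far smaller than that of Pxmp4. The largest were Pex11g (-1.81 ± 0.30) and Pex11a (-1.12 ± 0.11), which act in peroxisome division, at 7.25 CPM in BB-p53n DMSO and 16.6 CPM in p53n for Pex11a. Of 8 tested tomosyn and Munc18 genes, 4 were lower and 2 higher, and Stxbp5, the tomosyn closest to Stxbp5l, averaged 36.5 and 47.5 CPM (-0.30 ± 0.08). Of 11 tested atypical dual-specificity phosphatases other than Dusp26, 5 were lower and 3 higher, the lowest of them Dusp15 at -0.93 ± 0.11. Of 10 tested GPI-anchored immunoglobulin-domain genes other than Thy1, 3 were lower and 6 higher, Cntn3 (2.51) and Cntn4 (2.25) the most. Among all tested genes 34.0% were lower and 35.3% higher.

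Genes next to the 13 on the chromosome did not share the fall as a group. Within 100 kb lay 60 tested neighbours, of which 20 fell in the PDGF-BB line relative to p53n (33.3%, against 34.0% of all tested genes), 18 rose (30%) and 22 were not called. Beside Pxmp4, the cell cycle factor E2f1, 15866 bases away, was higher by 3.25 on the log2 scale, at 34.1 CPM in BB-p53n DMSO and 3.77 CPM in p53n. Beside Mfap2, 5 of 7 tested neighbours were lower, with log2 fold changes of -0.71 to -1.80. The predicted gene Gm39323, 2325 bases from Thy1, was at 0.129 CPM in BB-p53n DMSO and 1.5 CPM in p53n.

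Of the neighbours at 10 CPM or more in p53n, Pde1b, beside Ppp1r1a, fell furthest. It encodes a calcium- and calmodulin-dependent phosphodiesterase that breaks down cyclic nucleotides, and lies at chr15:103411461-103438479 on the plus strand, so that the ends of both genes face each other with a gap of 227 bases. It had 9.84, 10.7 and 11.3 CPM in BB-p53n EZH2i, 3.42, 3.99 and 2.78 CPM in BB-p53n DMSO and 78.4, 80 and 80.3 CPM in p53n. The order of the groups was that of Ppp1r1a, with no overlap between any of them. Between BB-p53n DMSO and p53n its log2 fold change was -4.47 ± 0.12 (edgeR adjusted p = 1.79e-17), and with the inhibitor it rose by 1.64 ± 0.12 (edgeR adjusted p = 3.71e-10), or 1.17 with the GC and length trend removed. Pde1b stood at 4.27% of its p53n level in BB-p53n DMSO and at 13.3% in BB-p53n EZH2i, and Ppp1r1a at 2.76% and 22.4%. Whether fragments that run past the end of one gene were counted for the other was not tested, since the counting used no strand option. Nckap1l, the only other tested neighbour of Ppp1r1a, was lower in BB-p53n DMSO (0.0403 CPM) than in p53n (0.934 CPM).

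**Figure D4:**
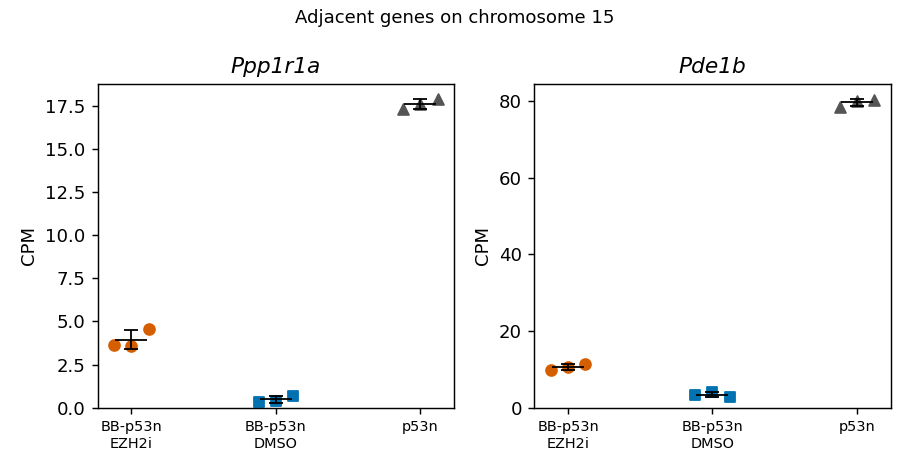
CPM of Ppp1r1a and Pde1b in BB-p53n EZH2i, BB-p53n DMSO and p53n libraries, with 1 point per library, the mean as a dash and the SD as bars, on axes that start at 0. Both genes are lowest in BB-p53n DMSO, with partial levels in BB-p53n EZH2i of 3.94 CPM for Ppp1r1a and 10.6 CPM for Pde1b.

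Broader lists, most of them drawn up by gene name, held few of the 13 genes. The 13 are only 0.137% of the 9497 expressed rows, so lists of this size would hold few or none in any case. Such lists miss genes by function, as the one of leucine-rich repeat membrane genes misses Lrfn2, and none of them covers cell surface and synapse proteins as a whole. Of 35 lists of channels, receptors, enzymes, matrix genes, transcription factors and cell type markers, 3 held 1 of the 13 each. Adgrv1 was 1 of 29 expressed G protein-coupled receptors named Gpr or Adgr, Pcdha1 was 1 of 42 expressed cadherins and protocadherins, and Tgfb1i1 was 1 of 22 genes of growth factors and binding proteins, a list it entered by its name, since it is an adaptor and not a ligand. None of the 13 was among 23 expressed genes of committed or differentiating oligodendrocytes, whose median level in BB-p53n DMSO was 39.4% of that in p53n, nor among 20 astrocyte markers (51.5%), 22 OPC markers (71.9%), 12 neuron markers (74.7%), 150 solute carriers, 22 imprinted genes or 13 developmental transcription factor genes often under Polycomb. Enpp6, Grm3, Ptgs2, Pla2g7 and Cbs also met both limits but were left out by name. They could not count toward any list, so these absences do not show that a family was spared.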

How the data were processed

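Raw counts of fragments per gene were deposited by the authors as 1 table, not normalized. Per the file headers, featureCounts 1.6.3 took fragments over exons, required both mates to be mapped with quality 20 or more, and used the Ensembl 108 genes of GRCm39 with no strand option. Trimmomatic and Subread are in the submitters' processing notes, with no version given. CPM and the choice of genes used column totals. Tests used edgeR 4.0.16 (R 4.3.3) with filterByExpr, TMM and a robust quasi-likelihood fit of all 9 libraries by group, and 17001 genes were tested. The GC and length correction used per-library spline offsets on the longest GENCODE transcript (GRCm38, matched by identifier) and on exon length. Symbols were found for 52073 identifiers (91.4%). The members and lists were chosen with earlier results of these data known, and the lists of relatives after the 13 genes had been seen. The rule for named genes took the members and the genes beside each limit, and relatives and neighbours were picked after their values were seen. The fit was tested on simulated data. Libraries of a group differed by more than sampling noise. The CPM worth of 3 counts covers counting error only, while SD and SE include the spread between libraries.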

Additional observations from a re-analysis of the deposited data

How the results depend on the processing

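The number of genes depended on the limits. It was 4 with an upper limit of 0.25 CPM, 33 with 1 CPM, 43 with a lower limit of 5 CPM and 3 with 20 CPM. It was 12 with TMM-scaled CPM, which dropped Shroom1, and 12 to 15 with 1 library left out. Without BB-p53n DMSO replicate 1, Gsg1l and Ppp1r1a left the set, and without replicate 2, Ppp1r1a and Stxbp5l. The count called higher was 5 under RLE scaling, column totals, no filter, DESeq2 1.42.0 and the replicate block, 4 in a fit of the 6 PDGF-BB libraries alone, in which 10 of the 13 passed the filter, and 5 to 6 with 1 library left out. The count called lower was 0, except 1 (Mfap2) with the GC and length trend removed, and 0 to 1 with 1 library left out. The replicate numbers did not pair the libraries, with correlations of -0.08 to 0.12, and under the replicate block 6271 genes were higher and 5996 lower. Removing the GC and length trend turned the log2 fold changes of Gsg1l (-0.10), Dusp26 (-0.14), Adgrv1 (0.97) and Stxbp5l (0.40). With 1 library left out Adgrv1 ranged from -0.40 to 0.05. Leaving out BB-p53n EZH2i replicate 2 turned it and made Lrfn2 pass (1.28). Mfap2 (-2.57) and Dusp26 (0.96) passed without BB-p53n EZH2i replicate 1, Gsg1l (1.06) without BB-p53n DMSO replicate 3 and Pcdha1 (-1.67) without BB-p53n DMSO replicate 2. Over all alternatives run, edgeR or DESeq2 adjusted p was at most 9.93e-07 for Ppp1r1a, 0.00309 for Shroom1, 0.0023 for St8sia3 where tested, 0.0375 for Tgfb1i1 and 0.0906 for Thy1. The number of genes at 0.5 CPM or more in BB-p53n EZH2i was 5 to 8 with 1 library left out, and depth limits these values, since most rest on under 50 counts a group.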

Other observations

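Gabrq, which encodes the theta subunit of GABA-A receptors and lies on the X chromosome, met both limits but was outside the chromosomes of the rule. It had 2, 0 and 4 counts in BB-p53n EZH2i, 3, 0 and 0 counts in BB-p53n DMSO and 295, 301 and 300 counts in p53n libraries. The 5 genes left out by name stayed low with the inhibitor. Pla2g7 averaged 0.223, 0.232 and 96.8 CPM in BB-p53n EZH2i, BB-p53n DMSO and p53n, Cbs 0.360, 0.177 and 41.7 CPM, Grm3 0.141, 0.218 and 26.9 CPM, Ptgs2 0.111, 0.129 and 18.8 CPM, and Enpp6 0.434, 0.130 and 18.7 CPM. With the same limits turned round, 3 autosomal genes were at 10 CPM or more in BB-p53n DMSO and under 0.5 CPM in p53n.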
